A study of Mus musculus with 2 samples.

Results

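Nearly pure haemoglobin barcodes are droplets of a single-cell RNA library whose transcripts come almost wholly from the alpha-globin and beta-globin genes. They were taken from 2 libraries of mouse blood as every barcode in which genes with names beginning Hba- or Hbb- held at least 95% of all UMIs (unique molecular identifiers, 1 per captured transcript), with no minimum of genes. The rule found 7214 of 36612 barcodes, of which 6459 were in the db/db library and 755 in the wt library. The label for these barcodes, red cells, was checked against erythroid genes that the rule did not use, which summed to 156512 and 110037 UMIs per 1e6 non-haemoglobin UMIs in db/db and wt members, against 548 and 474 in barcodes with under 20% haemoglobin. At least 1 UMI of such a gene was in 99.6% of the db/db and 99.1% of the wt members, at median depths of 3154 and 3601 UMIs, but also in 62.9% and 52.2% of the barcodes with under 20% haemoglobin, at 2069 and 1662 UMIs, so 1 UMI does not mark a red cell and the check rests on the level.

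The animals studied were db/db mice, in which the leptin receptor gene Lepr is mutated and which become obese and diabetic, and the controls were wild-type (wt) mice. Both were male, of strain C57BLKs/J and 21 weeks old, with 3 mice per genotype. Blood was drawn from behind the eye, 200 µl per group, and red cells were lysed in 2 rounds of 15 min before loading, so these barcodes are what passed lysis. Each genotype gave 1 library, nothing maps a barcode to a mouse, and the submitters described both samples as immune cells. Without replicate libraries no test between the genotypes was possible: intervals are 95% intervals that cover counting error only, and every difference is one between these 2 libraries.

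A mature mammalian red cell has no nucleus, mitochondria or ribosomes. Its immediate precursor in blood, the reticulocyte, has already lost the nucleus but still carries messenger RNA made earlier, mostly globin, and breaks down its remaining organelles, its ribosomes and unneeded proteins by autophagy and the ubiquitin system while haemoglobin is completed. Haemoglobin is a tetramer of alpha and beta chains, each holding 1 haem group, whose synthesis begins in mitochondria with the enzyme encoded by Alas2.

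The adult mouse alpha chain is encoded by Hba-a1 and Hba-a2 on chromosome 11 and the adult beta chain by Hbb-bs and Hbb-bt on chromosome 7. The sequences just before their start sites are shown because these genes define the barcodes. Each run is the 250 bases upstream of the RefSeq start site in GRCm38.p6, 5′ to 3′ on the gene's strand, with every match to GATAA (bound by GATA factors), CACCC (bound by Krüppel-like factors), CCAAT (a box bound by NF-Y) and TATAA (the box that positions the start of transcription) in capitals, including matches on the opposite strand.
Hba-a1, chr11:32283422-32283671, plus strand: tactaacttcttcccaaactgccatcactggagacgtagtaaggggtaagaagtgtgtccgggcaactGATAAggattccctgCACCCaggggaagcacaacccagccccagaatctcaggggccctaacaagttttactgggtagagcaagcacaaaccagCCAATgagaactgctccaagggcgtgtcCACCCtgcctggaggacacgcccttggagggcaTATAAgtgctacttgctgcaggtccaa
Hbb-bs, chr7:103827929-103828178, minus strand: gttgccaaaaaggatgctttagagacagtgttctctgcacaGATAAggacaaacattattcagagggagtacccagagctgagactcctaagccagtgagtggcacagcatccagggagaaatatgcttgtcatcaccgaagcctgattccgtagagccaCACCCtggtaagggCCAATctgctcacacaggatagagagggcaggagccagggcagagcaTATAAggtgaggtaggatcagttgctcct
Hbb-bt, chr7:103813924-103814173, minus strand: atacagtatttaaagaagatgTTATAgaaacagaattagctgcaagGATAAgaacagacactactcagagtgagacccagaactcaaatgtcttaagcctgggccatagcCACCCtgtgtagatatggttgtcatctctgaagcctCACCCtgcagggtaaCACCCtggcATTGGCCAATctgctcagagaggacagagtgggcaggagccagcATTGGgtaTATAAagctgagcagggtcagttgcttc
The Hba-a2 window was identical to that of Hba-a1 over the 297 bases they share out of 300, and is not shown. The Hbb-bs and Hbb-bt windows were identical at 73.5% of aligned bases. All 4 windows held all 4 motifs, which 496 of 32851 RefSeq windows of 300 bases (1.51%) also did. Singly, GATAA stood in 25.4% of those windows, CACCC in 57.5%, CCAAT in 37.4% and TATAA in 24.9%, on either strand. In Hbb-bt, 1 opposite-strand match to CCAAT lay directly before a forward one. A match describes letters only.

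The share of barcodes that met the rule was larger in db/db. It was 32.4% of 19912 db/db barcodes (Clopper-Pearson interval 31.8 to 33.1) and 4.52% of 16700 wt barcodes (4.21 to 4.85), a ratio of 7.17 (6.65 to 7.75). Most haemoglobin-rich barcodes of both libraries lay close to the threshold. Among barcodes with at least 50% haemoglobin, the median share was 94.6% in db/db and 92.0% in wt, so a shift of a few points between the libraries moved many barcodes across the line. At 90% the shares were 65.8% of db/db and 44.2% of wt barcodes, a ratio of 1.49 (1.44 to 1.53). Towards the pure end, 302 db/db and 5 wt barcodes reached 97.5%, 59 and 2 reached 98%, and 1 and 0 reached 99%.

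The size of the ratio moved with a pair of overlapping non-globin features, Gm42418 and AY036118, which were left out only together. The first, a long non-coding gene (ENSMUSG00000098178, chromosome 17, 39846958 to 39848788 in GRCm38, plus strand), overlaps ribosomal RNA sequence and collects its fragments, and AY036118 lies within it on the opposite strand. Gm42418 held 11.4% of non-haemoglobin UMIs in db/db and 26.9% in wt members. With Gm42418 and AY036118 left out of each barcode's total, 40.7% of db/db and 24.9% of wt barcodes reached 95% haemoglobin, a ratio of 1.63 (1.57 to 1.70). Depth moved with it too: among barcodes with at least 50% haemoglobin, the ratio of the shares reaching 95% was 15.7 at 1000 to 2000 UMIs, 7.07 at 2000 to 3000, 5.06 at 3000 to 4000, 3.44 at 4000 to 6000 and 3.74 above that. The parts of genotype, mouse, lysis and library in the ratio cannot be told apart with 1 library each.

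**Figure D1:**
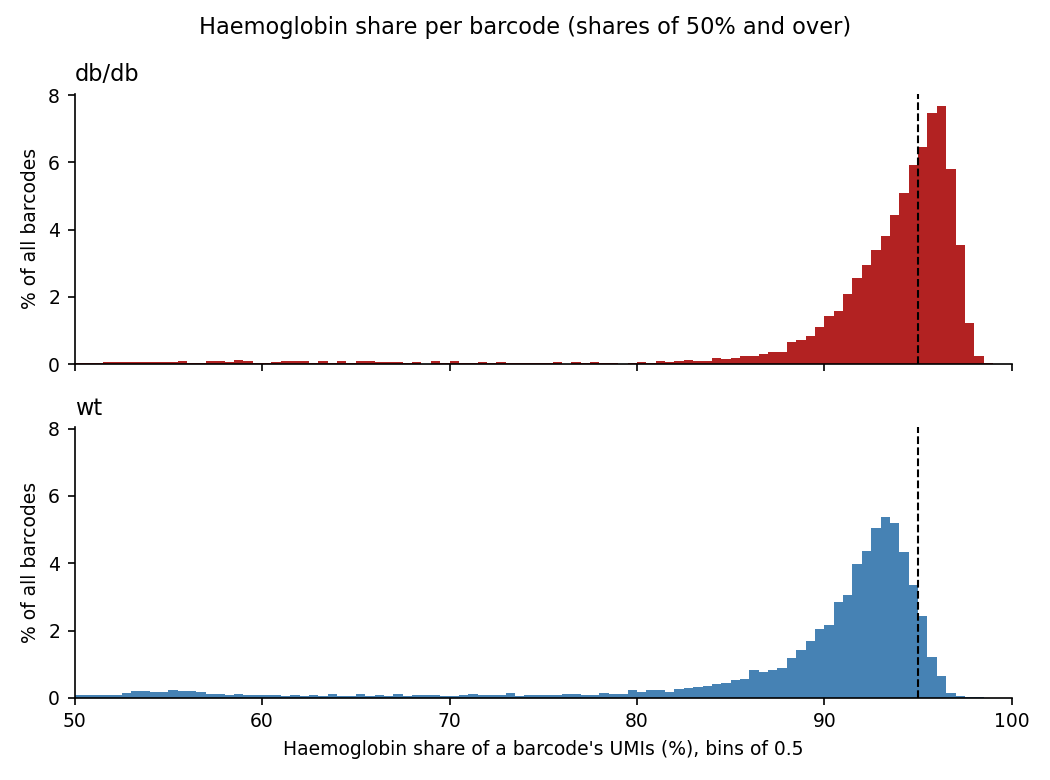
Share of all barcodes of each library (vertical axis, %) by the haemoglobin share of their UMIs (horizontal axis, bins of 0.5 points, from 50%), with db/db above wt and a dashed line at 95%. The db/db barcodes peak just right of the line and the wt barcodes left of it, with medians of 94.6% and 92.0%.

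The barcodes were shallow in everything but globin. Their median total was 3154 UMIs in db/db (lowest 1369, highest 13018) and 3601 in wt (1178 to 11513), and the median haemoglobin share was 96.1% and 95.5%. What remained was a median of 120 non-haemoglobin UMIs in a db/db barcode (13 to 586) and 159 in a wt barcode (27 to 575). The median barcode held 67 genes in db/db and 78 in wt, the most were 190 and 185, and a minimum of 200 genes, a common filter, would remove every one of them. Thinned to 1500 UMIs each, which left out 197 db/db and 20 wt barcodes, the medians were 41 and 42 genes and 58 and 67 non-haemoglobin UMIs. Together the barcodes carried 31.1% of all UMIs of the db/db library and 5.74% of those of wt, and 91 barcode sequences occurred in both libraries, none of them a member in both.

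On either side of the threshold the barcodes looked much alike. In the half-point bin just inside it there were 1288 db/db and 408 wt barcodes with median depths of 3691 and 3695 UMIs, and just outside it 1178 and 558 with 3828 and 3800.5. Alas2 held 4.08% of non-haemoglobin UMIs just inside and 3.75% just outside in db/db, against 3.67% and 3.39% in wt.

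Globin composition was close to the same in both libraries. Alpha-globin genes took 41.17% of globin UMIs in db/db and 41.33% in wt members, a difference of -0.153 points (interval -0.215 to -0.0914), which turned to 0.0290 among barcodes with 95 to under 96% haemoglobin, so its direction depended on which barcodes were taken. Single barcodes spread far more widely, with the 5th to 95th percentile of the alpha share running over 36.3 to 45.3% in db/db and 35.4 to 45.9% in wt. The ratio of beta to alpha UMIs was 1.43 in db/db and 1.42 in wt. These are captured 3′ ends, not protein, and the capture of different genes may differ.

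Hbb-bs was the leading globin gene. It held 48.3% of globin UMIs in db/db and 48.7% in wt, Hba-a1 held 23.8% and 23.6%, Hba-a2 held 17.4% and 17.7%, and Hbb-bt held 10.5% and 9.99%. Among beta-globin UMIs alone Hbb-bs took 82.1% in db/db and 83.0% in wt. Their last 100 transcript bases were identical at 70.1% of aligned positions, so reads could separate them. The Hba-a1 and Hba-a2 transcripts matched at 99.8% of 538 aligned bases, and the split of alpha UMIs between them is therefore uncertain.

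The minor beta gene was a smaller part of globin in these barcodes than in the next group down, where Hbb-bt held 12.3% of globin UMIs in db/db and 11.4% in wt barcodes with 90 to under 95% haemoglobin. Barcodes with under 20% haemoglobin were not higher than members, with 10.4% and 9.85%. The embryonic genes were nearly silent: Hbb-y had 7 UMIs in all db/db and 1 in all wt members, and Hba-x, Hbb-bh1 and Hbb-bh2 had 0 of 20931204 and 0 of 2770560 globin UMIs. The theta-globin genes Hbq1a and Hbq1b, which the rule did not count as haemoglobin, had 561 and 283 UMIs in db/db and 87 and 26 in wt.

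**Figure D2:**
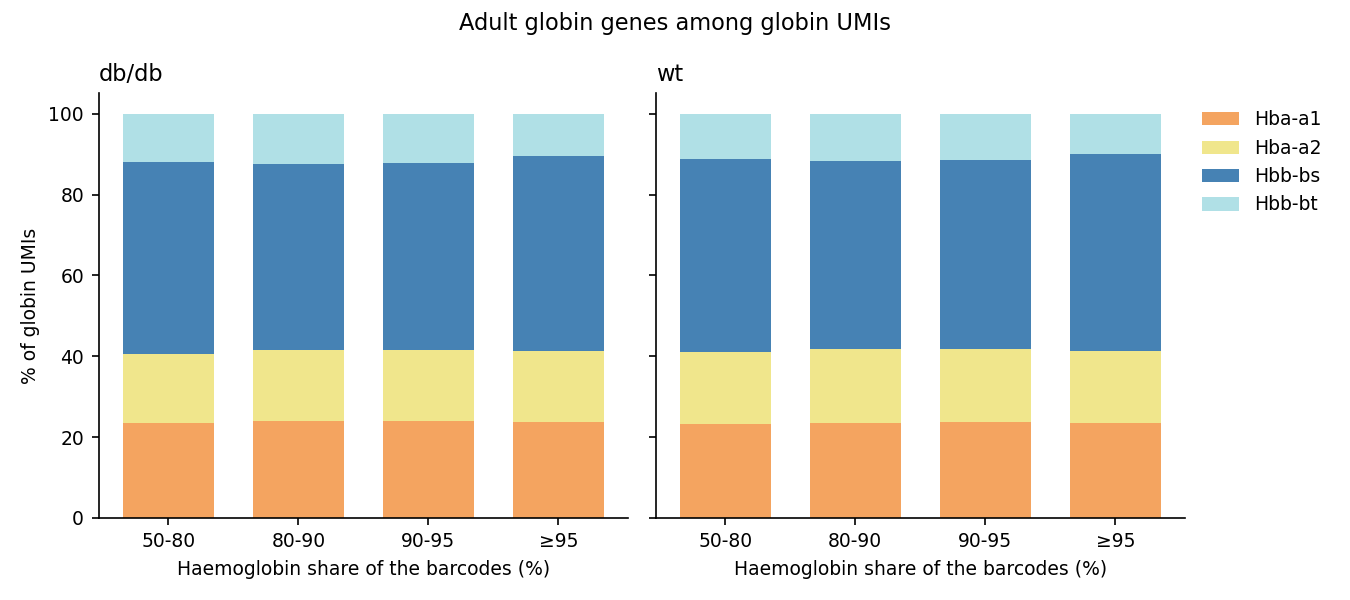
Share of globin UMIs (vertical axis, %) of the 4 adult globin genes, stacked, in barcodes grouped by haemoglobin share (horizontal axis), with db/db left of wt. The alpha genes make up about the lower 2 parts in every bar, 41.17% in db/db and 41.33% in wt at 95% and over, and the Hbb-bt part is narrower there than at 90 to 95%.

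The non-haemoglobin remainder summed to 847460 UMIs from 10017 genes in db/db and 128848 UMIs from 6224 genes in wt. Because the rule fixes the haemoglobin share, levels below are UMIs of a gene per 1e6 non-haemoglobin UMIs (CPM) summed over the barcodes of a library, and a log2 ratio is db/db over wt of CPM plus 10. Each UMI stands for a captured 3′ end, so levels need no correction for gene length. A single UMI was worth 1.18 CPM in db/db and 7.76 CPM in wt. The remainder was concentrated: the 10 leading genes held 39.0% of it in db/db and 46.3% in wt, the 50 leading genes 68.6% and 68.7%, and 17 of 23 genes ranked among the 20 leading ones in both.

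Gm42418 headed both lists, with 113889 CPM (interval 113171 to 114609) in db/db and 268565 CPM (265742 to 271409) in wt. It was present in almost every barcode, and the median barcode gave it 11.2% of its non-haemoglobin UMIs in db/db and 27.6% in wt. The same gap stood in the other barcodes of these libraries, at 70894 CPM in db/db and 212590 in wt with 50 to under 95% haemoglobin, and 13900 and 38544 CPM with under 20%, so it was a difference of the libraries and not of these barcodes alone. AY036118, which overlaps it, went the other way in these barcodes, with 32386 CPM in db/db and 22624 in wt. A level that takes this much of the remainder lowers all others in wt. The median log2 ratio over all genes measured was 0.32, and it was 0.07 with both genes left out of the scale, a shift of -0.25.

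Genes of haem synthesis and iron handling came next. Alas2, the first enzyme of haem synthesis in red cells, had 48249 CPM (47782 to 48719) in db/db and 37276 (36229.6 to 38346) in wt, and 97.7% of db/db and 96.8% of wt barcodes held a UMI of it. Ftl1, the ferritin light chain, had 35963 and 28863 CPM, and Fth1, the heavy chain, 10429 and 6418. Slc25a37, which carries iron into mitochondria, had 11670 CPM in db/db and 7831 in wt. Fech, which inserts the iron into haem, had 7192 and 5246 CPM.

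The middle steps of the haem pathway were sparse. Alad, Uros and Ppox had 10, 7 and 7 UMIs in db/db and 1 each in wt, and Urod had 53 and 13. The transferrin receptor gene Tfrc, which brings iron into dividing erythroblasts, had 35 and 7 UMIs, and Hmox1, which breaks haem down, had 0 in both. So the transcripts for the first and the last haem step were abundant and those named between them were sparse. Of the 24 genes of this list 10 were measured, meaning that they had at least 50 UMIs over both libraries. This minimum is met at a lower level in db/db, where 1 UMI was worth 1.18 CPM, than in wt, where it was worth 7.76. Entry therefore favours genes higher in db/db: 5 of 745 measured genes had 0 UMIs in wt and 0 of them had 0 in db/db. None of the 10 was 2-fold apart between the libraries. Of all 745 measured genes 17.0% were at least 2-fold higher and 5.50% at least 2-fold lower in db/db. The list summed to 120884 CPM in db/db and 90463 in wt.

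Genes of oxygen and acid-base handling were led by Bpgm, whose enzyme makes 2,3-bisphosphoglycerate, a molecule that loosens the hold of haemoglobin on oxygen. It had 38100 CPM (37685 to 38518) in db/db and 22204 (21398 to 23033) in wt. Carbonic anhydrase 2 (Car2), which interconverts carbon dioxide and bicarbonate, had 848 CPM in db/db and 388 in wt. The glycolytic genes were low, with 137 db/db and 8 wt UMIs of Gapdh and 48 and 2 of Aldoa. Of 6 measured genes of 15 in the files, 4 were at least 2-fold higher in db/db, where 17.0% of all measured genes were, and none lower, with a median log2 ratio of 1.06. The list was also higher in db/db in barcodes with under 20% haemoglobin, at 1741 and 1045 CPM.

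The ubiquitin and autophagy genes of reticulocyte maturation formed a further large block. Mkrn1, a ubiquitin ligase gene, had 30971 CPM in db/db and 19558 in wt. Ube2l6, whose protein conjugates ubiquitin and ISG15, had 15526 CPM and 14537 CPM, Ubb, a ubiquitin gene, 14401 and 9011, and Bnip3l, which marks mitochondria for removal in reticulocytes, 14161 and 9181. Gabarapl2 and Map1lc3b, members of the family that coats autophagosomes, had 7034 and 6684 CPM in db/db and 4959 and 4913 in wt. Ube2o, which drives the removal of ribosomes from reticulocytes, had 3414 and 2693 CPM. Of 18 measured genes of 26, 3 were at least 2-fold higher in db/db (Ube2b, Fbxo9 and Ypel3), a share close to the 17.0% of all measured genes, and none lower. The sum was 104141 CPM in db/db and 72993 in wt, so about 10.4% and 7.30% of the remainder.

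Further leading genes had other roles. Tpt1, the translationally controlled tumour protein gene, had 26266 CPM in db/db and 17362 in wt. Oaz1, an inhibitor of polyamine synthesis, had 26562 and 18689 CPM. Pabpc1, which binds the poly(A) tail, had 18037 and 13124 CPM, and Fam46c, which encodes a poly(A) polymerase, had 13189 and 12100. Of these, only Tpt1 belongs to the list of erythroid transcription and translation control. Of its 13 measured genes of 27, none was 2-fold apart, and the median log2 ratio was 0.47, which turned to -0.08 when members were chosen and scaled without Gm42418 and AY036118.

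**Figure D3:**
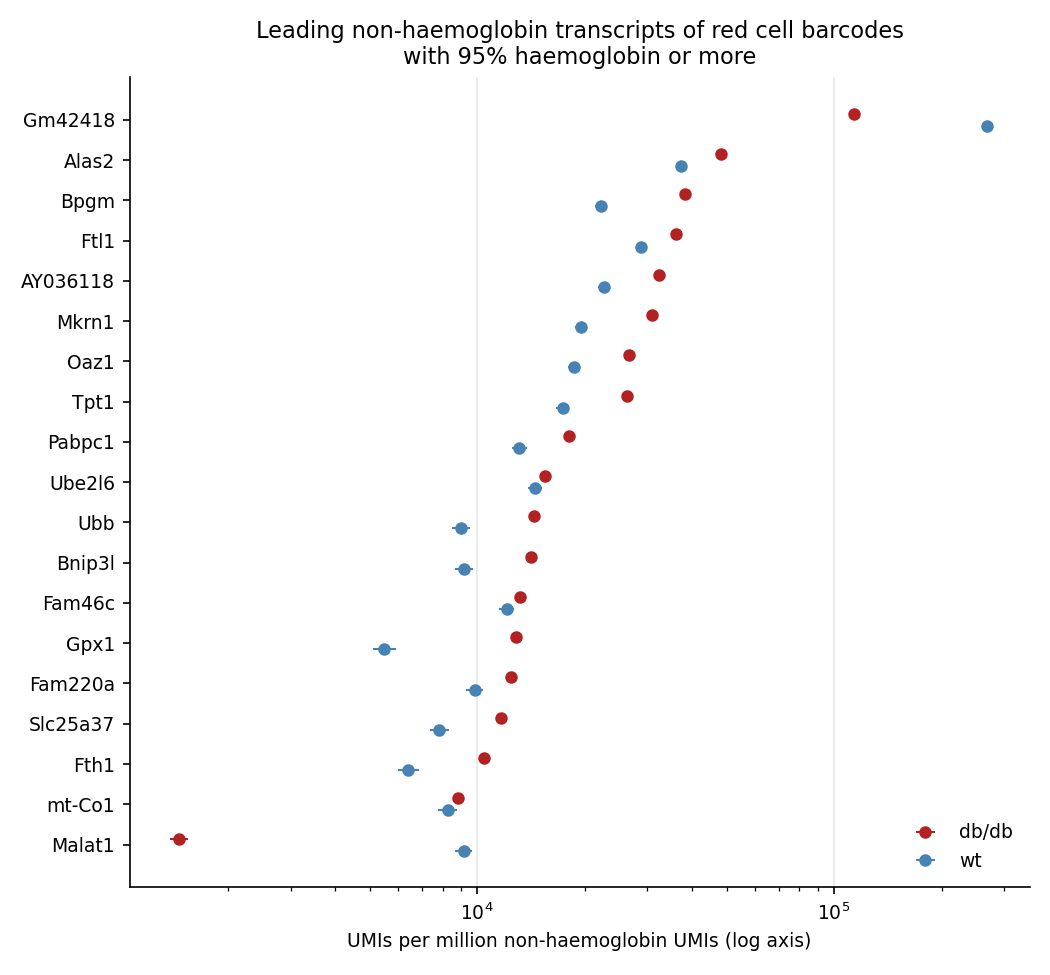
Levels of 19 of the 23 genes that rank among the 20 leading non-haemoglobin genes in either library, in UMIs per 1e6 non-haemoglobin UMIs (horizontal log axis), as db/db and wt points with 95% Poisson intervals. Gm42418 and Malat1 lie far higher in wt, at 268565 against 113889 and 9158 against 1462 CPM in db/db, and most erythroid genes lie somewhat higher in db/db.

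The antioxidant genes and those of oxygen handling had the highest median log2 ratios of the red cell groups, close to each other at 1.14 and 1.06. Gpx1, which reduces hydrogen peroxide with glutathione, had 12847 CPM (12606 to 13090) in db/db and 5495 (5098 to 5915) in wt, a ratio of 2.34 (2.17 to 2.53). Prdx2, the main red cell peroxiredoxin, had 3994 and 1669 CPM, a ratio of 2.39 (2.09 to 2.76). Gclm, a subunit of the enzyme that starts glutathione synthesis, had 1410 and 636 CPM. Gpx4, which reduces lipid peroxides, had 485 and 140 CPM, a ratio of 3.47 (2.17 to 5.92).

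Catalase was the abundant exception. Cat had 865 CPM in db/db and 807 in wt, a log2 ratio of 0.10. Of 11 measured antioxidant genes of 21, 6 were at least 2-fold higher in db/db, where 17.0% of all measured genes were, and none was lower. Of the 6, Prdx5 and Prdx6 had 58 UMIs each in db/db and 0 and 1 in wt, so they were measured through db/db alone. The median log2 ratio of the 11 was 1.14 against 0.32 over all genes, and 0.87 on the scale without Gm42418 and AY036118. The list held 2.05% of the remainder in db/db and 0.926% in wt. It was also higher in db/db outside these barcodes, so the difference was not one of these barcodes alone. It had 26429 and 13192 CPM with 50 to under 95% haemoglobin and 3688 and 1904 CPM with under 20%.

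The membrane and skeleton genes were a small part of the remainder. Epb41, encoding protein 4.1 of the spectrin skeleton, had 7299 CPM in db/db and 6480 in wt. Cd24a, a surface glycoprotein lost as erythroid cells mature, had 3278 and 2150 CPM. Slc4a1, the band 3 anion exchanger, had 589 and 473 CPM. Of 13 measured genes of 27, 1 was at least 2-fold higher in db/db, Trim10, with 477 and 132 CPM. The median log2 ratio was 0.31, and it was -0.01 with the median of all genes set to 0.

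Transcripts of the organelles were still present. The mitochondrially encoded genes held 2.56% of the remainder in db/db and 2.25% in wt, led by mt-Co1 with 8829 and 8266 CPM. Their median log2 ratio of 0.23 over 11 measured genes of 13 turned to -0.03 on the scale without Gm42418 and AY036118, and 0 of them were 2-fold apart. In single barcodes the mitochondrial part ran up to 45.7% in db/db and 26.3% in wt, around medians of 2.01% and 1.69%. Ribosomal protein genes held 6.87% and 6.82%. Their median log2 ratio over 75 measured genes of 83 was -0.11, against 0.32 over all genes. Under TMM scaling it was 0.91, against 1.35 over all genes. Many ribosomal protein genes have near-identical pseudogene copies, so single values are uncertain.

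Among transcripts of the nucleus, Malat1 stood apart. This abundant nuclear non-coding RNA had 1239 UMIs in 6459 db/db barcodes and 1180 UMIs in 755 wt barcodes, which is 1462 CPM (1382 to 1546) against 9158 CPM (8643 to 9696), a log2 ratio of -2.64. A UMI of it was found in 17.1% of the db/db and 78.2% of the wt barcodes. It was also lower in db/db in barcodes with under 20% haemoglobin, at 20879 CPM in db/db and 38516 in wt, by less. Neat1, another nuclear RNA, had 55.5 and 124 CPM. In this list of 10, 5 genes were measured and 3 were at least 2-fold lower in db/db, against 5.50% of all measured genes.

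Across all 745 measured genes, 127 were at least 2-fold higher and 41 at least 2-fold lower in db/db. The split rested on the scale and on the minimum of UMIs per gene. It was 81 and 69 on the scale without Gm42418 and AY036118, 69 and 76 with the median of all genes set to 0, 514 and 6 with TMM normalization, and 9 and 3 per 1e6 of all UMIs, where the pseudocount outweighs most genes. A pseudocount of 50 in place of 10 CPM gave 56 and 25. With no minimum of UMIs per gene, 481 of 10472 genes were higher and 1302 lower. With the same members, therefore, the count of genes in either direction says little, and a list is to be read against the all-gene median.

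The genes with the highest log2 ratios, among those with at least 100 UMIs in the higher library and a ratio interval that excludes 1, were not erythroid ones. Gpx3, the secreted glutathione peroxidase made mainly by kidney, had 210 UMIs in db/db (248 CPM) and 0 in wt, so at least 10.6-fold higher against a limit of 3 counts. The platelet genes Gp9, a subunit of the von Willebrand factor receptor, and Pf4, a granule chemokine, had 228 and 1011 CPM in db/db and 7.76 and 140 in wt, Gp9 from a single wt UMI.

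Also in this set were Gng11 (1325 CPM in db/db and 186 in wt), a G protein gamma subunit gene, Ctla2a (3193 and 481 CPM), Cd9 (933 and 140 CPM), a tetraspanin, Tsc22d1 (675 and 109 CPM), Pttg1ip (120 and 15.5 CPM) and Cox6a1 (509 and 93.1 CPM), a respiratory chain subunit. Ctla2a was the most abundant of them and was found in 25.1% of db/db and 6.75% of wt barcodes. At the opposite end, 100 UMIs are a far higher level in wt, where 1 UMI is worth 7.76 CPM, than in db/db, where it is worth 1.18, so only abundant genes could be ranked. Lower ratios such as that of H2-K1, at -1.78, had too few wt UMIs to enter. The genes that could were headed by Malat1 and otherwise consisted of small ribosomal protein genes, Rps27, Rps21, Rpl37a, Rpl37, Rps23, Rpl38, Rpl35a and Rpl39, and of Rec114. Rps27, with 355 CPM in db/db and 838 in wt, was the only one of these besides Malat1 to reach 2-fold. Rec114 had 873 and 1180 CPM.

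**Figure D4:**
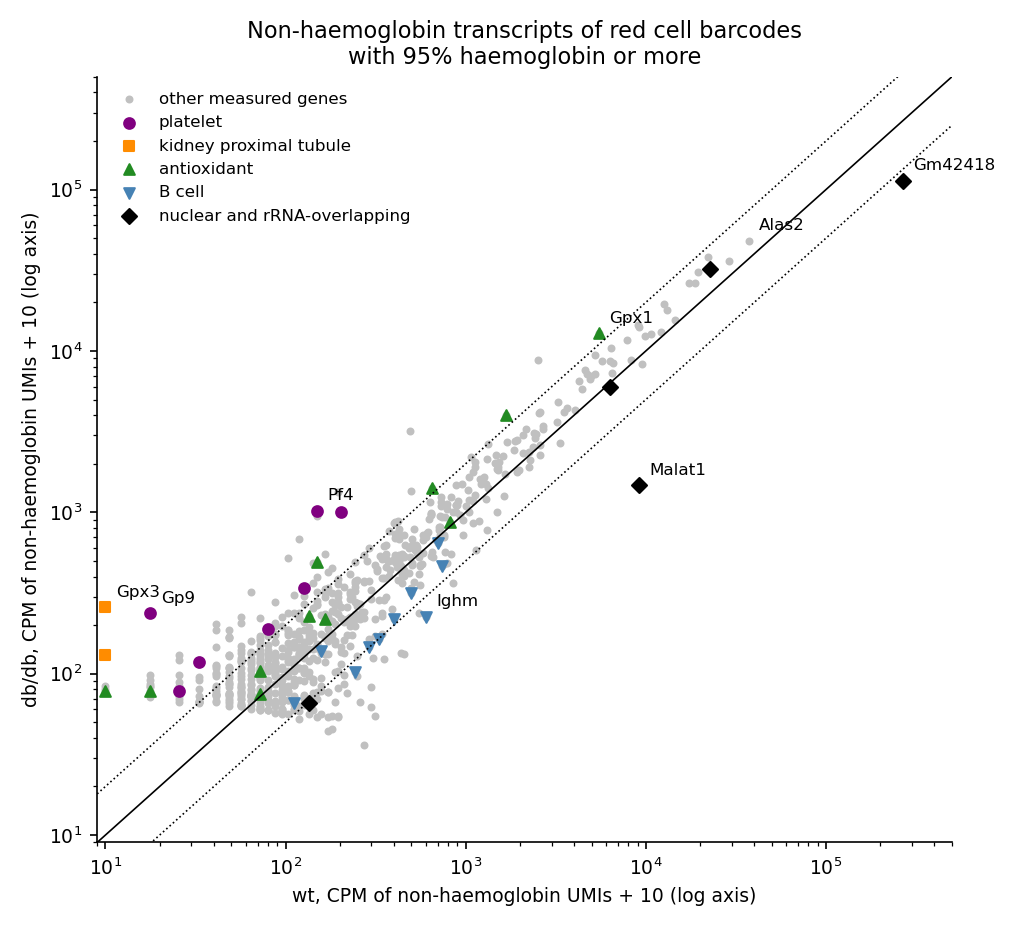
Level of each of the 745 measured genes in db/db (vertical axis) and wt (horizontal axis), as CPM of non-haemoglobin UMIs plus 10 on log axes, with a line of equality and dotted lines at 2-fold. Platelet, kidney and antioxidant genes lie above the line of equality, with Gpx3 at 248 CPM in db/db and 0 in wt. All 10 B cell genes lie on or below that line on this scale. Their median log2 ratio is -0.82, against 0.32 over all genes, and under TMM scaling it is 0.19 against 1.35.

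Transcripts of other blood cells were present at low levels. On the CPM scale those of platelets were higher and those of B cells lower in db/db. The B cell median log2 ratio changed sign under TMM scaling but stayed below that of all genes. The platelet list of 11 genes summed to 3024 CPM (2908 to 3144) in db/db and 574 (451 to 721) in wt, a ratio of 5.27 (4.18 to 6.73). All 7 measured members were at least 2-fold higher in db/db, against 17.0% of all measured genes. Each of the 7 reached the minimum of 50 UMIs in db/db alone and had fewer in wt, so this count is favoured by the minimum. Gp1bb, Gp5 and Tubb1 had only 11, 26 and 16 UMIs in db/db. They were at 0 in wt, which allows up to 23.3 CPM, so little is read from these zeros. At least 1 platelet UMI was in 23.4% of db/db and 8.61% of wt barcodes, or in 14.0% and 3.67% of those thinned to 1500 UMIs. The same list was higher in db/db outside these barcodes too, at 6025 and 1380 CPM with 50 to under 95% haemoglobin and 1861 and 798 CPM with under 20%.

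The B cell list of 10 genes summed to 2386 CPM (2283 to 2492) in db/db and 3966 (3629 to 4325) in wt. All 10 were measured, and 3 were at least 2-fold lower in db/db (Cd79b, Ighm and Ighd) against 5.50% of all measured genes. The list's median log2 ratio was -0.82, against 0.32 over all genes. Under TMM scaling it was 0.19, against 1.35 over all genes. A B cell UMI was found in 25.6% of db/db and 47.5% of wt barcodes, and in 13.8% and 24.8% after thinning. Red cells should lack these genes, and no value here tells free RNA from expression. Barcodes with under 20% haemoglobin, which include the B cells, held 27114 and 26851 CPM of the list.

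No barcode held many marker UMIs of a leukocyte or platelet. The most marker UMIs in a db/db barcode were 9 for platelets, 5 for B cells and 3 for monocytes, and in a wt barcode 3, 5 and 2, and no barcode reached 10 of any such list. The rule itself keeps such counts low, since the median remainder was 120 UMIs in db/db and 159 in wt barcodes. Whether a droplet also held a leukocyte or platelet was not tested. T cell and NK cell lists had 65 and 28 UMIs in db/db and 10 and 6 in wt, with no gene measured. The monocyte list had 417 UMIs in db/db and 52 in wt, mostly Lyz2, which was its 1 measured gene and not 2-fold apart. The neutrophil list had 485 and 46 UMIs, with S100a8, a calcium-binding alarmin gene, at least 2-fold higher in db/db (150 and 54.3 CPM) and S100a9 not.

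Without the barcodes that held any leukocyte or platelet marker UMI, 3269 db/db and 308 wt members were left. Their share of all barcodes then differed by a ratio of 8.90 (7.92 to 10.0), and 79 of 434 measured genes were at least 2-fold higher and 16 lower in db/db. In these barcodes the median log2 ratio was 1.23 for the antioxidant list and 0.57 for the haem and iron list, against 1.14 and 0.51 in all members. The median over all measured genes was also higher in them, at 0.44 against 0.32. Both lists stayed above it.

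Kidney transcripts were found mainly in the db/db library. The list of 9 proximal tubule genes had 457 UMIs in db/db and 1 in wt, or 539 and 7.76 CPM, and 5.96% of db/db and 0.132% of wt barcodes held 1 or more. The db/db library carried them elsewhere as well, with 1991 CPM in barcodes with under 20% haemoglobin against 27.4 CPM in wt. Of its members, Gpx3 was 46.0% of the list's UMIs in db/db members and 48.3% in db/db barcodes with under 20% haemoglobin, while Kap was 8.53% and 4.05%. Slc5a2, a defining glucose transporter of the tubule, had 0 UMIs in members of either library. It was only 0.401% of the list's UMIs in db/db barcodes with under 20% haemoglobin, so little is read from this 0.

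Genes of the interferon response and of antigen display were scarce. Only 3 of 24 interferon genes were measured: Isg15, a ubiquitin-like protein gene, with 346 CPM in db/db and 551 in wt, Ly6e with 160 and 303, and Ifitm3 with 168 and 69.8, the 1 gene that was at least 2-fold higher, a log2 ratio that turned to -0.078 when members were chosen and scaled without Gm42418 and AY036118. The class I list had 4 measured of 14, and H2-K1 was 2-fold lower in db/db, at 122 and 442 CPM, while B2m, the invariant chain, had 717 and 442. Class I genes resemble one another, so reads may be shared between them. The list's median log2 ratio of 0.17 turned to -0.07 on the scale without Gm42418 and AY036118, so its direction depended on the scale.

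The remainder changed in makeup with the haemoglobin share in both libraries. Alas2 took a larger part at each step, at 3923, 16026, 28618 and 48249 CPM in db/db barcodes with 50 to 80, 80 to 90, 90 to 95 and at least 95% haemoglobin, and 4681, 17186, 27346 and 37276 CPM in wt. Per 1e6 of all UMIs it was higher at the second step than at the first, at 2005 against 1420 in db/db and 2209 against 1630 in wt. From there it was lower at each step, at 1970 and 1877 in db/db and 1975 and 1657 in wt. Over these steps the larger CPM therefore came with a smaller remainder. This scale matters for every trend along the rule, since haemoglobin and the remainder add to 100%.

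Other groups were lower at the top step on both scales. Antioxidant genes went through a maximum, at 6522, 30166, 38465 and 20471 CPM over the same 4 steps in db/db and 4527, 15667, 17021 and 9259 in wt, and per 1e6 of all UMIs they stood at 2648 at the third step and 797 at the top in db/db, and at 1230 and 411 in wt. Membrane and skeleton genes followed the same course, with 28327 and 16074 CPM at the last 2 steps in db/db and 20488 and 12767 in wt. Mitochondrially encoded genes were at 50984, 61591, 31594 and 25584 CPM in db/db and 81627, 86579, 31687 and 22546 in wt. The haem synthesis and iron list was higher at the top step only as a part of the remainder: per 1e6 of all UMIs it stood at 7239, 6145 and 4704 over the last 3 steps in db/db and at 6102, 5275 and 4020 in wt.

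The same order continued within the members. From 95 to 96, to 96 to 97, to 97% and over, Alas2 had 42996, 53487 and 60027 CPM in db/db, and antioxidant genes 24730, 16096 and 11473. In wt the first 2 steps gave 36734 and 40579 CPM for Alas2 and 9413 and 8486 for antioxidant genes, and the last held only 12 barcodes. Bpgm did not follow Alas2: it had 39563, 37907 and 29271 CPM in db/db and 22450.2 and 20942 in wt.

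**Figure D5:**
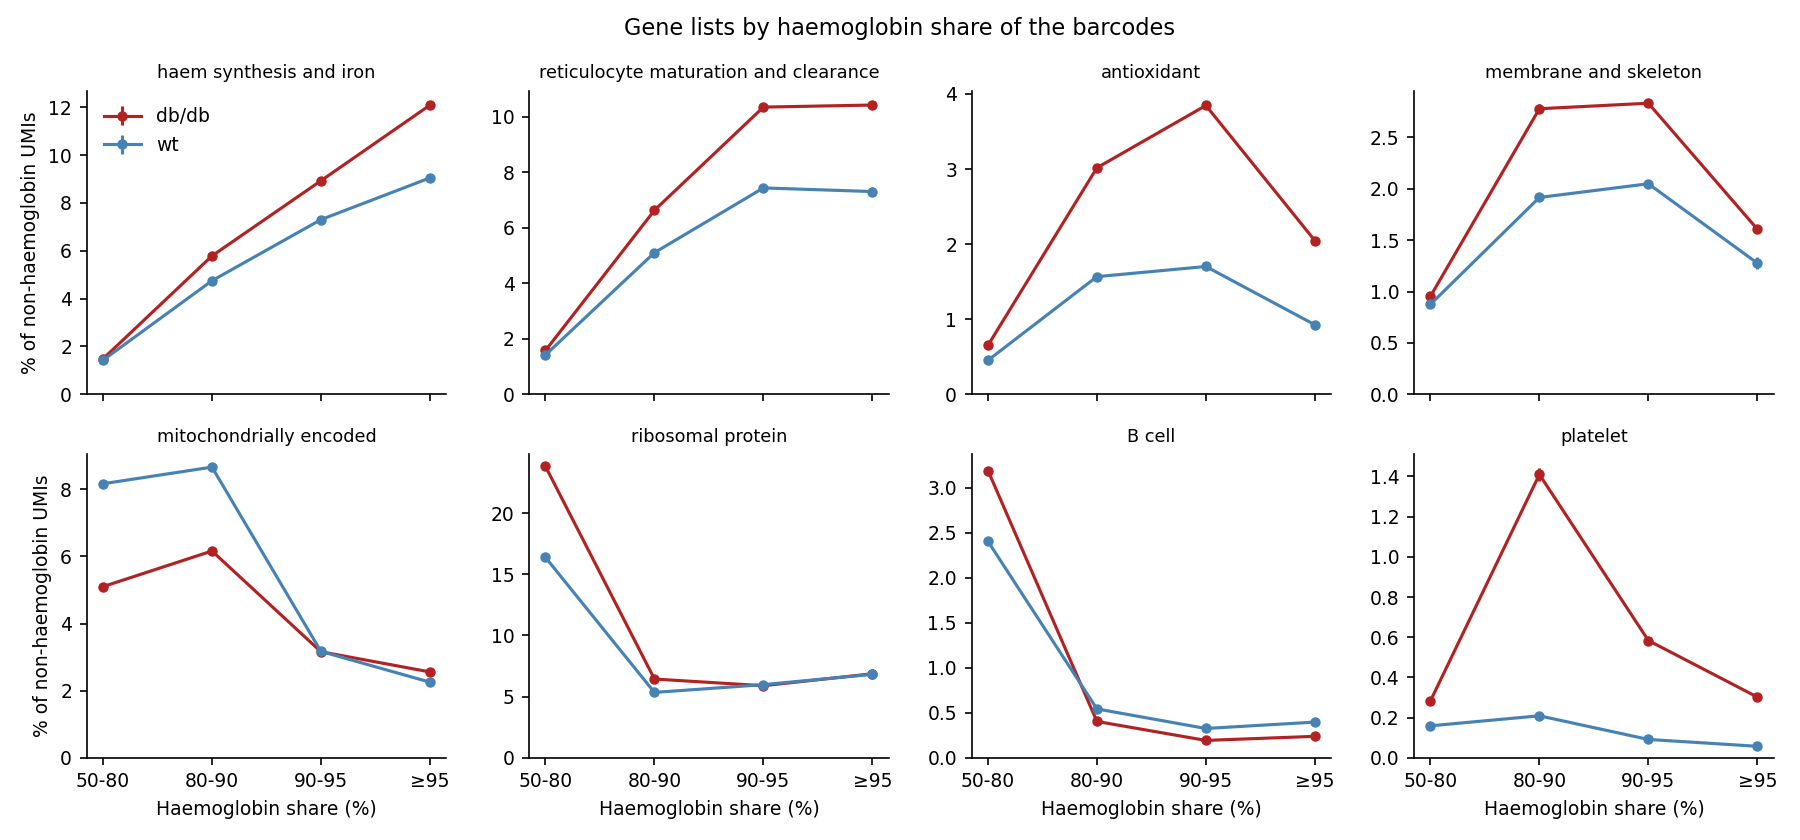
Share of non-haemoglobin UMIs (vertical axes from 0, %) of 8 gene lists in barcodes grouped by haemoglobin share (horizontal axis), as db/db and wt lines with 95% Poisson intervals, most of them smaller than the points. Haem synthesis and iron genes reach 12.1% in db/db and 9.05% in wt at 95% and over, antioxidant genes peak at 90 to 95% with 3.85% and 1.70%, and B cell genes are far lower above the lowest group.

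Set against the barcodes of the same library with 50 to under 95% haemoglobin, far more genes were lower than higher. The rule itself splits these groups, so nothing is read from the counts: 24 of 5058 genes in db/db (0.474%) were at least 2-fold higher in members and 2187 (43.2%) at least 2-fold lower, and in wt 19 of 4931 (0.385%) and 1423 (28.9%). The highest ratios in both libraries were those of Alas2, Ftl1, Ube2l6, Oaz1 and Isca1, the last an iron-sulphur assembly gene. In db/db they also held Slc25a39, a mitochondrial glutathione carrier, Bola3, Sh3glb1, Fam220a and Lars2, a mitochondrial tRNA synthetase. In wt, Tmem256 and Carhsp1 were among them.

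At the lower end stood genes of nucleated cells. In db/db they were Cd74, the class II invariant chain (456 CPM in members and 3420 at 50 to under 95%), Pou2f2, a B cell transcription factor, Malat1 (1462 and 8955), the immunoglobulin gene Iglc2, Cd79a, and the ribosomal protein genes Rps27, Rps18 and Rps25. In wt several of the lowest, such as Ccnd3, Chchd10 and Npc2, had 0 UMIs in members, which allows up to 23.3 CPM, against 69.5, 69.2 and 66.3 CPM at 50 to under 95% haemoglobin. The wt members held 6.58 times fewer non-haemoglobin UMIs than the db/db members, and absences in wt are limited by that depth. The comparison group includes barcodes with 50 to under 80% haemoglobin, where the B cell list held 31891 CPM in db/db and 24029 in wt. It was higher in members than at 90 to under 95%, at 2386 against 1932 CPM in db/db and 3966 against 3258 in wt. So was the ribosomal protein list, at 68684 against 58930 CPM and 68212 against 59779. Per 1e6 of all UMIs both were lower in members, the B cell list at 92.8 against 133 and 176 against 235.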

How the data were processed

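Blood of db/db and wild-type mice gave 1 droplet library each, and each deposited matrix holds raw counts, whole numbers of UMIs for every gene in every barcode, with a minimum of 500 UMIs per barcode. Per the submitters' processing notes the authors used Cell Ranger 3.0.2 and the genome build mm10. The gene annotation, the cell calling and any removal of doublets are not given in the sources used here, and no doublet caller was run on these barcodes of few genes. Per the labels, libraries were made with a 3′ kit, so a UMI marks a transcript's 3′ end. The 31053 rows of a matrix were summed to 31017 symbols. Ahsp was not analysed here, and a few other genes that the naming rule covers are not reported here.

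Counts of members were summed per library and scaled per 1e6 non-haemoglobin UMIs. Depth was 70039773 UMIs in db/db and 50540198 in wt, of which members held 21778664 and 2899408. Shares carry Clopper-Pearson intervals, levels exact Poisson intervals, ratios exact conditional binomial intervals, and the difference in globin share a normal interval, all at 95% and for counting error only, since UMIs of 1 library do not show the spread between mice. For a count of 0 the limit was 3 counts. No test was made, because each genotype has 1 library, and a gene was called at 2-fold or more on the log2(CPM + 10) scale among genes with at least 50 UMIs over both libraries. Simulated counts with 200 genes changed 4-fold gave back 97.5% of them, with 8 of 490 unchanged genes called. Both sets of counts were Poisson draws from 1 pooled profile, with no spread between mice or libraries. These rates therefore cover counting error only and are no error rates for the calls made here.

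The members and gene lists were chosen with earlier results of these data known. Genes are named if they are among the 20 leading non-haemoglobin genes of a library, the 10 highest or lowest ratios (db/db over wt, or members over barcodes with 50 to under 95% haemoglobin) with at least 100 UMIs in the higher group, or in a list. Unnamed gene models are named only among the leading genes. The lists cover haem synthesis and iron, oxygen and acid-base handling, membrane and skeleton, reticulocyte maturation and clearance, antioxidants, transcription and translation, mitochondrially encoded, ribosomal protein, nuclear, interferon, class I MHC, B cell, T cell, NK cell, monocyte, neutrophil, platelet, proximal tubule and erythroid marker genes. Gene positions came from GENCODE M21 and upstream sequences from RefSeq, both on GRCm38. Alternatives changed the haemoglobin threshold, filters on barcodes and genes, the scale (among them TMM in edgeR 4.0.16) and the pseudocount. The tools were scipy 1.17.1, numpy 2.4.6 and pandas 2.3.3 in Python 3.11.15.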

Additional observations from a re-analysis of the deposited data

How the results depend on the processing

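The choice of threshold, members and scale decided most sizes here, and where a value moved or turned, the cause was not tested unless named. The ratio of the shares of barcodes, 7.17, was 1.49 at a threshold of 90%, 8.90 without barcodes with a leukocyte or platelet marker UMI, 1.63 with Gm42418 and AY036118 left out of the total, 3.82 for barcodes with 95 to under 96% haemoglobin and 6.09 among barcodes with at least 50% haemoglobin. The last 3 and the repeat of the scale without the 2 genes were chosen after seeing the data.

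The counts of genes 2-fold higher and lower in db/db, 127 and 41, were 269 and 387 at 90%, 79 and 16 without marker-bearing barcodes, 9 and 3 per 1e6 of all UMIs, 69 and 76 with the median of all genes set to 0, 56 and 25 with a pseudocount of 50 CPM, 38 and 5 with at least 200 UMIs per gene, 481 and 1302 with no minimum, 514 and 6 under TMM, and 81 and 69 for the same members scaled without the 2 genes. When members were also chosen without them, 85 were higher and 464 lower, and at 95 to under 96% haemoglobin 118 and 22. The minimums of UMIs change how many genes are compared and also the direction of the calls. Of the called genes, 88.4% were higher in db/db with at least 200 UMIs, 75.6% with at least 50 and 27.0% with no minimum. The median log2 ratio of all genes was 0.36, 0.32 and 0.13 in turn. The counts stayed within 1.5 times with members of under 10% mitochondrial UMIs, at least 1000 UMIs, without the 5% deepest members, with equal weights and with a pseudocount of 1 CPM.

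The difference in alpha-globin share, -0.153 points, was -0.280 at 90%, -0.0660 without the 5% deepest members, -0.220 without the 2 genes, -0.0567 with equal weights, and 0.0290 at 95 to under 96% haemoglobin.

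Medians of lists that turned were mostly near 0. Class I MHC, at 0.17, was at -0.59 at 90%, -1.50 when members were chosen without the 2 genes, -0.073 when only scaled without them, -0.00096 per 1e6 of all UMIs, -0.15 when centred and -0.94 with no minimum. The mitochondrially encoded list was at -0.12 at 90%, -0.20 and -0.033 without the 2 genes, and -0.087 when centred. Membrane and skeleton were at -0.060 without the 2 genes and -0.0096 when centred, and transcription and translation at -0.084 without them. The interferon list, at -0.66, was at 0.065 without marker-bearing barcodes and 0.41 under TMM, where the B cell list was at 0.19 and the ribosomal protein list at 0.91. The median of all genes was 0.44 without marker-bearing barcodes and 1.35 under TMM, so these lists stayed below it. The ratio of Ifitm3 turned to -0.078 when members were chosen without the 2 genes.

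A threshold of 99% left 1 db/db and 0 wt barcodes, and a minimum of 200 genes left 0 and 0, so neither gave a comparison of genes. No paired analysis was possible because each genotype has 1 library. Depth limits the wt side, where 1 UMI is worth 7.76 CPM.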
